A study of Drosophila melanogaster with 3 samples.

Results

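The 33 genes described here encode aminoacyl-tRNA synthetases and are the protein-coding genes of the Ensembl annotation whose symbol is an amino acid code followed by RS, out of 13945 protein-coding genes on the 6 main arms, from X to 4. The ending -m marks 15 of them as mitochondrial, and the other 18, without it, are called cytoplasmic here. Aminoacyl-tRNA synthetases load each tRNA with its amino acid before translation. Animal cells translate in the cytoplasm and in mitochondria, and the nuclear genome encodes the enzymes for both places, in many cases by separate genes. Hr3, also named Hr46, is a nuclear receptor of the ROR type that acts in the ecdysone response of insects. Some genes without an -m counterpart may serve both places, as GlyRS and LysRS do in mammals, and are counted as cytoplasmic.

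Chromatin was taken from whole embryos of Drosophila melanogaster of 0 to 24 h, males and females together, from a stable transgenic line in which green fluorescent protein (GFP) is fused to the C-terminus of Hr3. It was sheared to 200 to 800 bp and precipitated with an antibody against GFP, and the bound DNA was sequenced (ChIP-seq). The data form 1 group of 3 biological replicates, so there is no condition to compare and no test between samples could be made. The promoter that drives the fusion is not given in the sources used here, and embryos without the tag were not analysed here. The replicate lists of relaxed peaks, which keep weak peaks, held 23582 to 27006 peaks, and the authors' reproducible list, thresholded by the irreproducible discovery rate, held 5357. Read counts are not part of these files, and the depth is unknown. In whole embryos, binding in fewer cells and weaker binding per cell cannot be told apart.

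Hr3-GFP summits lay at the promoters of 16 of the 33 synthetase genes, 48.5%, where 23.9% of all protein-coding genes had one. A promoter summit is the summit position recorded for a reproducible peak, within 500 bp of a transcription start site (TSS) of any transcript of the gene. The cytoplasmic genes held most of them, with 12 of 18 bound (66.7%), against 4 of 15 mitochondrial ones (26.7%), a share near that of all protein-coding genes. The bound cytoplasmic genes were AlaRS, ArgRS, AsnRS, AspRS, GluProRS, GlyRS, IleRS, LeuRS, MetRS, SerRS, ThrRS and ValRS. The bound mitochondrial genes were ArgRS-m, AspRS-m, CysRS-m and ProRS-m. When a summit was counted only for the gene with the nearest TSS, 10 of the 33 members were bound, 7 cytoplasmic and 3 mitochondrial, against 17.4% of all genes. In the higher-signal part of the reproducible list, the upper 50% of its peaks, 11 members kept a promoter summit, 10 cytoplasmic and 1 mitochondrial, against 14.6% of all genes. No test was made of these counts, because the members were chosen with earlier results of these data known.

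The same order was found among the genes for ribosomal proteins, the other large class of translation genes with a cytoplasmic and a mitochondrial set. Of the 85 cytoplasmic ribosomal protein genes, 60 had a promoter summit (70.6%), and of the 73 mitochondrial ones 38 had one (52.1%). The mitochondrial synthetase genes, at 26.7%, were thus below the mitochondrial ribosomal protein genes, without a test of the difference.

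The arrangement of the genes differed between the sets. A promoter was called divergent here where a gene on the other strand has its TSS upstream within 500 bp, so that a single stretch of DNA serves both. Of the synthetase genes 21 of 33 were divergent (63.6%), against 29.6% of all protein-coding genes. Among the cytoplasmic members 14 of 18 were divergent, and among the mitochondrial ones 7 of 15. Divergent genes of the whole genome were bound more often, 46.0% of 4134, than the remaining genes, 14.6% of 9811. Within the divergent class, 13 of 21 synthetase genes were bound (61.9%), and of the others 3 of 12. The cytoplasmic genes had 10 of 14 divergent and 2 of 4 other promoters bound, and the mitochondrial genes 3 of 7 and 1 of 8. The part of the arrangement in the counts above was not tested.

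**Figure D1:**
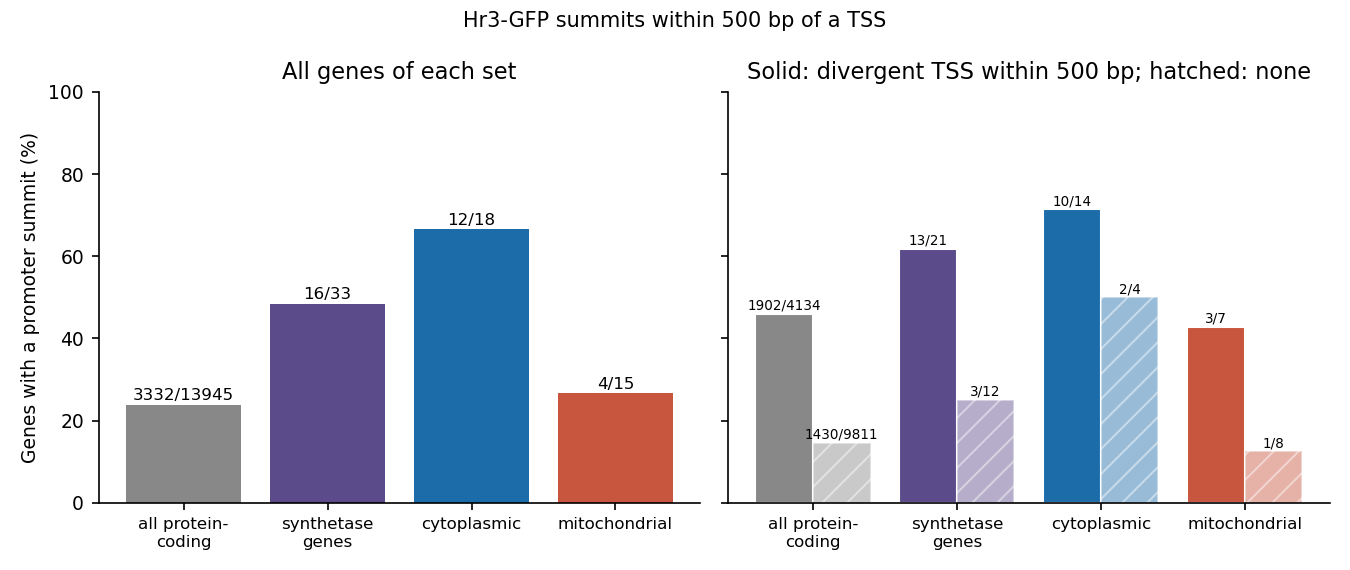
Share of genes with a reproducible Hr3-GFP summit within 500 bp of a TSS, in percent, for all genes of each set (left) and parted by promoter arrangement (right, solid bars with a divergent TSS within 500 bp and hatched bars without). The numbers over the bars are bound genes over all genes of the set; 12 of 18 cytoplasmic and 4 of 15 mitochondrial synthetase genes were bound, and the divergent bar is the higher one in each set.

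For 12 amino acids the annotation has both a cytoplasmic and an -m gene, which allows a comparison by amino acid. In 7 of them the cytoplasmic gene alone was bound, namely for alanine, asparagine, isoleucine, leucine, methionine, serine and valine. Both genes were bound for arginine and aspartate, and neither for tryptophan and tyrosine. Cysteine was the single case with the mitochondrial gene alone, CysRS-m. GluProRS, a fusion enzyme that charges both glutamate and proline tRNAs, was bound, while of its mitochondrial counterparts ProRS-m was bound and GluRS-m was not. Of the cytoplasmic genes without any -m counterpart, GlyRS and ThrRS were bound and GlnRS, HisRS and LysRS were not.

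The strongest peaks of the set lay at SerRS, IleRS, ThrRS and GluProRS. To compare replicates, each replicate's peak signal, a value assigned by the authors' caller, was divided by that replicate's median over all reproducible peaks, and the result is called relative signal. At SerRS the relative signal was 2.67, 3.21 and 3.61 in replicates 1, 2 and 3, a mean of 3.16 ± 0.472 (SD, n = 3), and the peak ranked 303 of 5357. At IleRS it was 2.90, 3.35 and 3.23, a mean of 3.16 ± 0.233 (SD, n = 3), at rank 312. At ThrRS it was 2.08, 2.52 and 2.66, a mean of 2.42 ± 0.302 (SD, n = 3), at rank 535. SerRS, IleRS and ThrRS were above all other bound members but GluProRS in every replicate, and GluProRS exceeded ThrRS in replicates 1 and 3. The means of SerRS and IleRS did not differ beyond their spread.

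At GluProRS the replicates disagreed at the reproducible summit, with 2.48, 1.33 and 2.84, a mean of 2.22 ± 0.791 (SD, n = 3). Its reproducible peak was narrow, 204 bp, and ranked 401. The strongest relaxed peak of replicate 2 at this promoter had its summit 110 bp away and a relative signal of 3.06. With the strongest relaxed peak within 500 bp of a TSS in each replicate, GluProRS had 2.48, 3.06 and 2.84, a mean of 2.79 ± 0.289 (SD, n = 3). For the other 15 bound members both ways of reading gave the same value in every replicate.

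The sequence under most of these summits was rich in A and T. The windows below span 50 bp on either side of the summit, on the strand of the synthetase gene, on dm6 from the RefSeq assembly, and are shown for 3 of the 4 strongest members and for the strongest and weakest mitochondrial ones. Capitals mark the 11 bases centred on the summit.
IleRS, chr3L:22288463-22288563, plus strand: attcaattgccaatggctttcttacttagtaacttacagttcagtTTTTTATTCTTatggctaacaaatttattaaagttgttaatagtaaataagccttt
ThrRS, chr2L:12103529-12103629, plus strand: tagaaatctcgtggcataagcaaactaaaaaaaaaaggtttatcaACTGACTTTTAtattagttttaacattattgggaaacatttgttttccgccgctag
GluProRS, chr3R:23958556-23958656, minus strand: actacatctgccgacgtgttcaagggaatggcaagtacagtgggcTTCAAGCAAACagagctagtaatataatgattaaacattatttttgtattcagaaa
ProRS-m, chr3L:2651896-2651996, minus strand: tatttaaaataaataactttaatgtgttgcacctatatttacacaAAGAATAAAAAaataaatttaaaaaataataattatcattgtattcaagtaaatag
AspRS-m, chr2L:16826981-16827081, plus strand: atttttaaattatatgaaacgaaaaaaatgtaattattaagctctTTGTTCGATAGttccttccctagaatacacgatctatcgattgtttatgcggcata

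Over the 51 bp centred on each of the 17 member summits the GC content ran from 15.7% at ProRS-m to 41.2% at LeuRS, with a median of 27.5%, against a median of 31.4% over all 2617 promoter summits of protein-coding genes. SerRS, ThrRS and ValRS shared 17.6%, and IleRS had 21.6%. GluProRS, another strong peak, had 39.2%, so low GC was not shared by all strong peaks of the set. Many reproducible peaks have the fixed width of 460 bp with the summit at their centre, so their summit may be the middle of a peak rather than its highest base.

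The cytoplasmic genes of middle strength were AspRS, LeuRS, AsnRS, MetRS, ValRS and GlyRS. At AspRS the relative signal was 1.34, 1.88 and 2.10 in replicates 1, 2 and 3, a mean of 1.77 ± 0.389 (SD, n = 3). AspRS was the single member with a pair of reproducible promoter summits, at 2R from 12879746 to 12880205 and from 12879952 to 12880411, 308 and 102 bp upstream of the nearest AspRS TSS. In replicates 1 and 2 a single relaxed peak covered both, so these are not shown to be separate sites.

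LeuRS had relative signals of 1.86, 1.55 and 1.24, a mean of 1.55 ± 0.309 (SD, n = 3). AsnRS had 1.15, 1.32 and 1.60, a mean of 1.35 ± 0.227 (SD, n = 3). LeuRS was higher than AsnRS in replicates 1 and 2 and lower in replicate 3, so their order was not the same in all replicates. MetRS had 1.25, 1.06 and 1.22, a mean of 1.17 ± 0.104 (SD, n = 3). ValRS had 1.41, 1.05 and 1.05, a mean of 1.17 ± 0.205 (SD, n = 3). These 2 values lie close to 1.16, the median over all bound protein-coding genes. GlyRS was lower, with 0.698, 0.979 and 1.06, a mean of 0.914 ± 0.192 (SD, n = 3).

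AlaRS and ArgRS, the weakest bound cytoplasmic genes, had closely matched values in all replicates. AlaRS had 0.638, 0.731 and 0.674, a mean of 0.681 ± 0.0471 (SD, n = 3), at rank 4053. ArgRS had 0.627, 0.663 and 0.749, a mean of 0.680 ± 0.0627 (SD, n = 3), at rank 4081. Both lay below the other 10 bound cytoplasmic genes in every replicate.

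The 4 bound mitochondrial genes lay in the lower part of the same range. ProRS-m had relative signals of 1.15, 0.968 and 1.29, a mean of 1.13 ± 0.160 (SD, n = 3). ArgRS-m had 0.967, 0.902 and 0.923, a mean of 0.931 ± 0.0333 (SD, n = 3), and was above the cytoplasmic ArgRS in all 3 replicates. AspRS-m, in contrast, was below the cytoplasmic AspRS in all 3, with 0.442, 0.763 and 0.896, a mean of 0.700 ± 0.234 (SD, n = 3). CysRS-m had 0.657, 1.01 and 0.562, a mean of 0.744 ± 0.237 (SD, n = 3). AspRS-m and CysRS-m each missed the strongest peaks of 1 replicate. The reproducible peak of AspRS-m overlapped none of the 5357 strongest peaks of replicate 1, and that of CysRS-m none of those of replicate 3. The remaining 14 bound members overlapped such a peak by 1 bp or more in all 3. Of the 3332 bound protein-coding genes, 2644 did so.

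As a group the bound cytoplasmic genes had higher peaks than the bound mitochondrial ones. Their median relative signals were 1.38, 1.32 and 1.42 in replicates 1, 2 and 3, against 0.812, 0.935 and 0.909. The log2 ratio of the medians was 0.76, 0.50 and 0.64, a mean of 0.63 ± 0.13 (SD, n = 3), which is a 1.55-fold difference. On rank percentiles within the relaxed lists the same log2 ratio was 0.10, so the size of the difference depends on the scale. The ranges overlap, since the means of the cytoplasmic genes ran from 0.680 to 3.16 and those of the mitochondrial genes from 0.700 to 1.13. Only 4 mitochondrial genes enter this ratio, and genes are not replicates, so no p is given. As one set, the bound members had a median of 1.16 ± 0.0945 (SD, n = 3), and the 3332 bound protein-coding genes, of which 3280 had a value in every replicate, had 1.17 ± 0.0169 (SD, n = 3), a log2 ratio of -0.01 ± 0.14 (SD, n = 3).

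**Figure D2:**
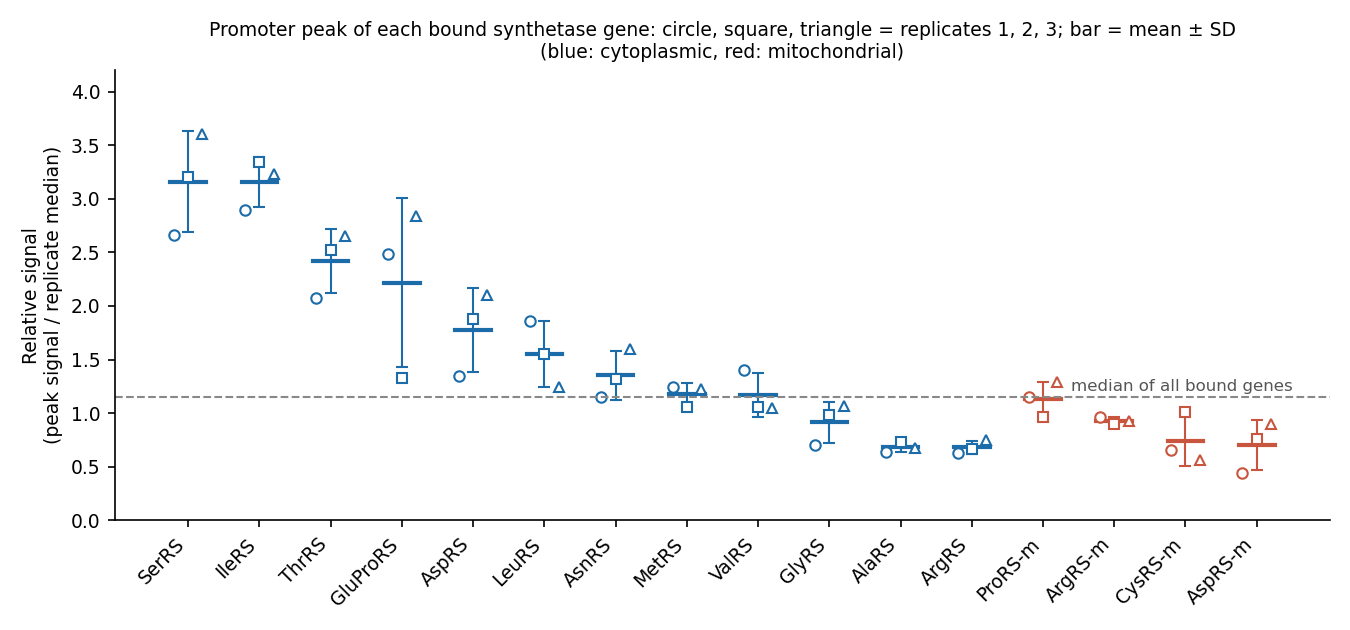
Relative signal (peak signal divided by the replicate's median at reproducible peaks) at the strongest promoter peak of each of the 16 bound synthetase genes, with the 3 replicates as circle, square and triangle, the mean as a bar and the SD as error bars. The dashed line is the median over all bound protein-coding genes, 1.16; SerRS and IleRS reach 3.16, and the 4 mitochondrial genes in red lie at or below 1.13.

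Most of the summits sat upstream of a start site, as in the genome at large. Of the 17 member summits 16 (94.1%) lay upstream of the nearest TSS of the member, at a median of -152 bp. For the strongest promoter summits of all 3332 bound genes the share was 90.7% and the median -146 bp. Among the members the exception was SerRS, where the summit fell 33 bp downstream of the TSS, in the 5′ UTR. Both AspRS summits were upstream of an internal TSS of the gene. They lay inside the AspRS gene, in sequence annotated as intron and 5′ UTR of AspRS and Nmda1. The farthest was that of ValRS, 390 bp upstream and nearest to the TSS of Kdm4B, a histone demethylase gene. The summit of AlaRS, 97 bp upstream of its TSS, lay in the annotated 3′ UTR of the neighbour CG13392.

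Most of the summits also lay near the TSS of a neighbouring gene, and such a summit is called shared here. For 14 of the 16 bound members another gene had a TSS within 500 bp of the summit, and AlaRS and AspRS-m were the exceptions. This count was not made over all bound genes. In 11 of the 17 cases the summit lay between the TSS of the synthetase and that of a divergent neighbour. This position was also not counted over all bound genes. Of the 3332 bound protein-coding genes 1902 had a divergent promoter, and of the 16 bound members 13. Nearest to the synthetase itself were the summits of AlaRS, AsnRS, GlyRS, IleRS, MetRS, SerRS, ThrRS, ArgRS-m, AspRS-m and ProRS-m. In the other 6 the neighbour was nearer. Of all 3332 bound protein-coding genes, 2421 had a summit nearest to their own TSS, against 10 of the 16 bound members. The summit 215 bp upstream of GluProRS was 45 bp from the TSS of AP-1sigma, a subunit gene of a clathrin adaptor. The summit 121 bp upstream of CysRS-m was 47 bp from that of O-fut1, which encodes the O-fucosyltransferase of Notch. ArgRS shared its summit with CG8578, LeuRS with CG17593 and AspRS with Nmda1. Among the strong peaks, IleRS was divergent from Hem, a gene of the actin-regulating SCAR complex, with 470 bp between the start sites, and ThrRS from Patsas with 466 bp. SerRS and CG17260 started 8 bp apart.

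The bound divergent promoters were wider than the unbound ones. The distance between the divergent start sites had a median of 260 bp at the 13 bound members, with a range of 8 to 470 bp. At the 8 unbound ones the median was 88.5 bp, with a range of 35 to 295 bp. For each gene the shortest such distance over its start sites was taken. At AspRS this was 38 bp, to Lfg, at a TSS other than the one nearest its summits, where Nmda1 started 54 bp away. Parted at 250 bp, the middle of the window, 7 of 8 wider promoters and 6 of 13 narrower ones were bound. Over all divergent protein-coding genes the same parting gave 53.4% of 1957 and 39.3% of 2177, so the order was that of the genome at large. This relation was chosen after seeing its values. The 8 unbound divergent members were GlnRS, LysRS, TrpRS, TyrRS, AlaRS-m, AsnRS-m, LeuRS-m and TyrRS-m.

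**Figure D3:**
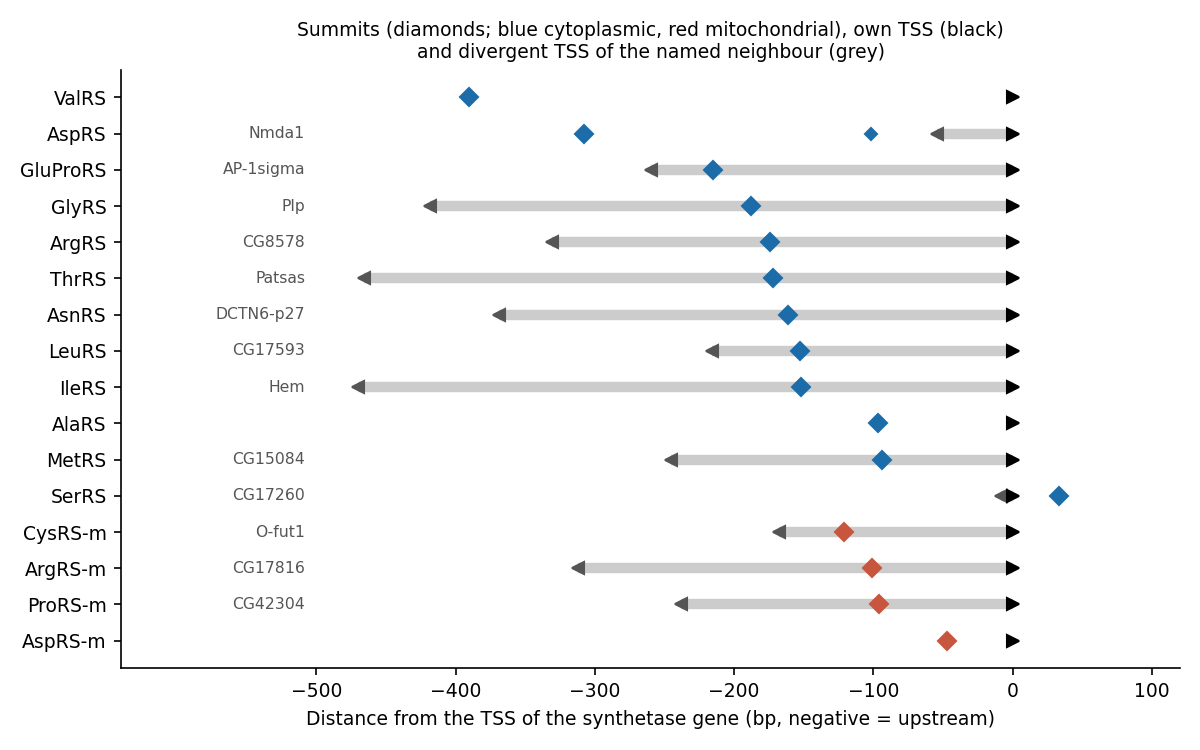
Position of the Hr3-GFP summits (diamonds) relative to the nearest TSS of each of the 16 bound synthetase genes, in bp, negative upstream; grey bars join it to the divergent TSS of the named neighbour where one lies within 500 bp. Summits of 11 grey-barred promoters lie between both start sites, the SerRS summit lies 33 bp downstream and the ValRS summit 390 bp upstream.

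Of the 17 genes without a reproducible promoter summit, 6 had a relaxed peak at the promoter in all 3 replicates. They were LysRS, TrpRS, TyrRS, LeuRS-m, MetRS-m and PheRS-m, and the share, 6 of 17, stands beside 17.0% of all protein-coding genes without a reproducible promoter summit. PheRS-m came closest to the reproducible list. Its relative signals were 0.344, 0.750 and 0.454 in replicates 1, 2 and 3, a mean of 0.516 ± 0.210 (SD, n = 3). In the pooled relaxed list its signal was 103.7, just under the lowest signal of the reproducible list, 105.4. TrpRS had 0.421, 0.308 and 0.372, a mean of 0.367 ± 0.0569 (SD, n = 3), and LeuRS-m had 0.408, 0.380 and 0.292, a mean of 0.360 ± 0.0606 (SD, n = 3). TyrRS and LysRS had means of 0.345 ± 0.0384 and 0.338 ± 0.150 (SD, n = 3), and MetRS-m had 0.257 ± 0.0637 (SD, n = 3). Other than the value of PheRS-m in replicate 2, all of these lay below the lowest mean of a bound member. Within single replicates the bound and unbound genes overlapped. LysRS in replicate 1, at 0.511, was above the bound AspRS-m, at 0.442, and PheRS-m in replicate 2 was above the bound ArgRS, at 0.663. The groups were made by presence in the reproducible list, so lower values outside it are not an independent result.

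The other 11 had a promoter peak in at most 2 replicates. AlaRS-m and SerRS-m had one in 2 replicates, with relative signals from 0.225 to 0.341, and GlnRS, HisRS and TrpRS-m had one in replicate 2 alone, at 0.156, 0.234 and 0.304. CysRS, AsnRS-m, GluRS-m, IleRS-m, TyrRS-m and ValRS-m had none in any replicate. Bound and unbound genes together, a relaxed promoter peak was present in all 3 replicates for 22 of 33 members, 15 of 18 cytoplasmic and 7 of 15 mitochondrial, against 36.6% of all protein-coding genes. In at least 1 replicate it was present for 27 of 33, against 60.8%. The cytoplasmic share was the higher one in the relaxed lists as well. All bound members are counted in these shares again, so this is not an independent result.

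**Figure D4:**
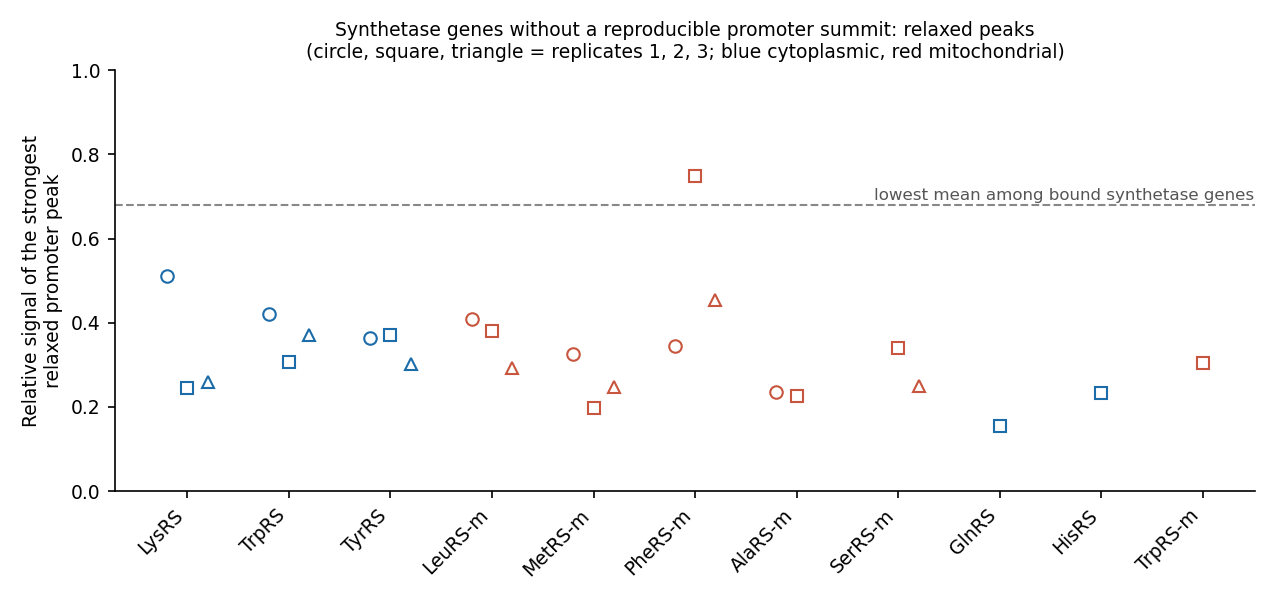
Relative signal of the strongest relaxed peak within 500 bp of a TSS for the 11 synthetase genes without a reproducible promoter summit that had such a peak in at least 1 replicate, with replicates 1, 2 and 3 as circle, square and triangle; a missing symbol means no peak. The dashed line is the lowest mean among the bound members, 0.680, which was passed by PheRS-m alone, in replicate 2. Single replicates of bound members also fell below this line, down to 0.442 at AspRS-m in replicate 1.

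Counting the whole gene and 1 kb on either side raised the share about as much in the members as in all genes. In the members it went from 48.5% to 57.6%, which is 19 of 33 with a reproducible summit. In all protein-coding genes it went from 23.9% to 33.3%. The 3 added genes were GlnRS, LeuRS-m and SerRS-m, whose summits were nearest to other genes. The peak near LeuRS-m, at 3L from 4824890 to 4825163, lay 845 bp upstream of its TSS in an intron of Dhc64C, the cytoplasmic dynein heavy chain gene. It had relative signals of 4.19, 3.70 and 3.54, a mean of 3.81 ± 0.338 (SD, n = 3), which is above the mean of every bound synthetase promoter. In replicate 3 SerRS was higher, at 3.61. The summits near GlnRS and SerRS-m lay downstream of the genes, 3071 and 2704 bp from the TSS, and were nearest to CG11858 and Nagk. No reproducible summit lay within 3 kb of the TSS of the remaining 14 unbound genes, the nearest being 3256 bp away, at AsnRS-m.

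The ROR response element (RORE), to which receptors of this type bind in other species, was not found at any member. It was searched with 8 further elements on both strands within 100 bp of the summits. The RORE was at 0 of 17 member summits and at 1.03% of the 2617 promoter summits. AGGTCA, the core of many nuclear receptor sites, lay at 2 member summits, MetRS and ThrRS, against 4.51% of promoter summits. The DNA replication-related element (DRE) TATCGATA, a core promoter sequence of housekeeping genes, lay at AlaRS and AspRS, against 7.64%. Ohler 7 lay at AspRS and ValRS, against 10.2%. Motif 1, Ohler 6, the E-box CACGTG, the ATF4-type element TGATGCAA and the ERR-type element TCAAGGTCA were at no member summit, against 2.33%, 1.07%, 1.99%, 0.650% and 0.0382%. The ERR-type element contains AGGTCA, so the searches overlap. These are matches of letters in a window and not shown to be sites.

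From 250 bp before to 50 bp after the canonical TSS, whether bound or not, the DRE was found at 5 of 33 members, AlaRS, ArgRS, IleRS, PheRS-m and TrpRS, against 8.95% of all protein-coding genes. Ohler 7 was found at 6 members, against 9.14%, Motif 1 at AsnRS-m, GlnRS and ProRS-m, against 4.36%, and AGGTCA at GlnRS, MetRS and TyrRS-m, against 5.82%. The E-box was at GlnRS and LeuRS-m, against 4.29%. No member had a RORE, an ERR-type or an ATF4-type element in this window. With so few members these counts are descriptions.

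A DRE and an AGGTCA match are printed to place the letters in their surroundings, in the direction of the synthetase gene. Capitals mark the DRE in the first line and AGGTCA in the next.
AlaRS, chr2L:8381756-8381803, minus strand: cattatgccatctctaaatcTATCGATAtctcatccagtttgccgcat
ThrRS, chr2L:12103461-12103506, plus strand: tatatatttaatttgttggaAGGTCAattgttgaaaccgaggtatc

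The distance from the middle of the element to the summit was 81 bp at AlaRS and 95 bp at ThrRS. The AGGTCA near MetRS was closer, 20 bp from the summit.

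A list of 18 related genes held 6 bound ones (33.3%), against 23.9% of all protein-coding genes. No test was made of this difference. The list includes the alpha and beta chains of cytoplasmic phenylalanyl-tRNA synthetase, which are synthetase subunits whose symbols the naming rule does not cover. These 2 were both bound and were the only bound genes among the 6 scaffold and paralog proteins. Of the accessory and carrier genes 2 of 4 were bound in each group, and of the sensing genes 0 of 4. At beta-PheRS the relative signal was 3.91, 2.87 and 2.77, a mean of 3.18 ± 0.634 (SD, n = 3), as high as at SerRS and IleRS. At alpha-PheRS it was 0.516, 0.691 and 0.472, a mean of 0.559 ± 0.116 (SD, n = 3), at rank 5329, near the end of the reproducible list. The alpha-PheRS summit was nearest to the TSS of CG2129. AIMP1, AIMP2 and AIMP3, the scaffold proteins of the multisynthetase complex, and Slimp, a mitochondrial paralog of seryl-tRNA synthetase, had no reproducible promoter summit.

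The amidotransferase that makes mitochondrial glutaminyl-tRNA, in place of a mitochondrial GlnRS, has the subunits GatA, GatB and GatC. GatA and GatC were bound, with means of 1.45 ± 0.102 and 1.02 ± 0.237 (SD, n = 3), and GatB was not. The GatA summit was nearest to the TSS of P5cr, and the GatC summit was equally near to that of PolG2. Dtd, which removes D-amino acids from tRNAs, was not bound. Of the factors that carry charged tRNAs to the ribosome, eEF1alpha1 was bound with 1.18 ± 0.124 (SD, n = 3) and mitochondrial mEFTu1 with 0.666 ± 0.175 (SD, n = 3), while their paralogs eEF1alpha2 and mEFTu2 were not. None of the 4 genes of amino acid sensing had a promoter summit, namely the uncharged tRNA sensor kinase Gcn2, the ATF4 homologue crc and the GATOR1 subunit genes Nprl2 and Nprl3. With 23.9% of all protein-coding genes bound, 0 of 4 is not read as a low count. Of the related genes called not bound, Gcn2, Nprl3, Slimp, Dtd and mEFTu2 had a relaxed promoter peak in all 3 replicates. AIMP1, eEF1alpha2 and crc had one in 2, and crc also had 1 reproducible summit within the gene or 1 kb of it.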

How the data were processed

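Peaks of GFP-tagged Hr3 ChIP-seq from 3 biological replicates were used, grouped by the labels into 1 group. The deposited signal of a peak is the value that the authors' caller assigned to it. Relaxed peaks were called by the authors, per the accompanying deposited text, per replicate and on the pooled alignments against a control library, and the reproducible list was derived from them on dm6. Aligner, caller and threshold: not given in the sources used here. The dm3 lists were not used.

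Genes and TSSs came from Ensembl release 115 (BDGP6.54, the dm6 assembly) without transposable elements, and sequence from the RefSeq copy of the same assembly. A replicate's value at a reproducible summit is its strongest relaxed peak covering that base. Values were divided by the replicate's median at reproducible peaks, 40.4, 81.2 and 68.6 in replicates 1, 2 and 3. For a gene with several summits the strongest is given. Coordinates are 1-based. Python 3.11.15, NumPy 2.4.6 and matplotlib 3.10.9 were used, and counting was tested on simulated summits.

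The members and lists were chosen with earlier results of these data known, so no test over members was made. All members are named. Related genes followed a list by role, of which 1 symbol was not found in the annotation. Alternatives were other promoter widths, TSS choices, stricter lists, leaving out each replicate, other signal scales and element windows. The ribosomal protein comparison, the spacing of start sites and the relaxed peaks at other distances were added after seeing the data.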

Additional observations from a re-analysis of the deposited data

How the results depend on the processing

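The count of bound members was 14 to 17 of 33 under other promoter widths, TSS choices and interval overlap, while the share of all protein-coding genes ran from 16.9% at 200 bp to 27.0% at 1000 bp. With the nearest TSS alone it was 10, with 7 cytoplasmic members, against 17.4% of all genes, because summits shared with a neighbour were given away. The mitochondrial count was 4, and fell to 1 with the higher-signal peaks alone (14.6% of all genes) and to 2 among the strongest peaks of every replicate (19.0%). Leaving out 1 replicate was read among the strongest peaks of the other 2, the rule that gave 14 members with all 3 replicates. It gave 14 to 15 members, 12 cytoplasmic in each case, and 2 to 3 mitochondrial, with 2 without replicate 2. The share of all genes in these was 19.7% to 20.7%. The median relative signal of members ranged from 1.13 to 1.22 and the cytoplasmic to mitochondrial log2 ratio from 0.57 to 0.70 when 1 replicate was left out. As rank percentiles within the relaxed lists the median was 91.8 and the ratio 0.10. Percentiles end at 100, so their ratio is not comparable in size with one of signals. The cause of the smaller value was not tested. Summits with any of the 9 elements were 5 of 17 within 100 bp, 2 within 50 bp and 11 within 200 bp, against 25%, 11.2% and 44.0% of the 2617 promoter summits. Unbound members with relaxed peaks in all replicates were 6 of 17, and 4 or 8 at 200 or 1000 bp, against 17.0%, 8.63% and 25.6% of all genes without a reproducible promoter summit. No paired analysis was possible because there is 1 group. Depth is unknown, so peaks missing from a list are not shown to be absent.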
